A study of Mus musculus with 2 samples.

Results

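The genes described here are 8 regulators of G protein signalling, Rgs1, Rgs2, Rgs3, Rgs10, Rgs14, Rgs16, Rgs18 and Rgs19, out of 31053 genes listed for each library of a mouse bone marrow single-cell study. They were found by symbol in both libraries, in barcodes with 1000 or more genes and 10% or less of molecules from mitochondrial genes. The family was chosen by measured values of these same libraries, its levels by cell class and a higher Rgs2 level in group 2 innate lymphoid cells (ILC2) of the knock-out. Differences between the libraries in these cells are therefore given as descriptions.

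Its question was how ILC2 develop when LCR1 is deleted. One library came from LCR1+/+ animals (WT) and the other from LCR1-/- animals (KO), all C57BL/6 mice aged 8 to 12 weeks, with the males and females of a genotype pooled in equal number. Live marrow cells that carried CD45 and CD127 and lacked lineage markers were sorted to a purity above 90%, and 3' ends of transcripts were counted as unique molecular identifiers (UMIs). With 1 library per genotype there was no replicate, so no test was run, and all intervals are 95% intervals for counting error only, which take UMIs as independent although UMIs of 1 cell are not.

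RGS proteins bind the active alpha subunits of heterotrimeric G proteins and speed up their hydrolysis of GTP, which shortens the signal from a receptor. Most members act on the Gi and Gq classes, through which chemokine, lipid and neuropeptide receptors signal in lymphoid cells. Rgs1 and Rgs2 are transcribed quickly after many stimuli, and Rgs1 is known to limit the migration of lymphocytes towards chemokines.

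Rgs2, Rgs1 and Rgs18 are neighbours on the minus strand of mouse chromosome 1 (GRCm38, the build that mm10 names). Rgs2 lies at chr1:143999338-144004161, Rgs1 at chr1:144242296-144249242 and Rgs18 at chr1:144752683-144775435, all protein-coding, and the stretch from Rgs2 to Rgs18 spans 776 kb with 5 Rgs genes. The remaining 2 of these, Rgs13 and Rgs21, had 0 UMIs in every class compared below. Rgs16 lies farther along the same chromosome at chr1:153740349-153745468, Rgs14 at chr13:55369732-55384687, Rgs19 at chr2:181688419-181693977, Rgs3 at chr4:62559847-62704001 and Rgs10 at chr7:128373621-128418758.

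The promoter of Rgs2, the member with the largest difference between the libraries in ILC2-like cells, is shown beside that of Rgs10, whose level in those cells differed by less than its counting interval. Each runs from 250 bases before the RefSeq start to 50 after it (GRCm38.p6), 5' to 3' on the gene's own strand, and capitals mark the 5-base core of the cAMP response element, TGACG, or its reverse complement CGTCA.
Rgs2, chr1:144004100-144004399, minus strand: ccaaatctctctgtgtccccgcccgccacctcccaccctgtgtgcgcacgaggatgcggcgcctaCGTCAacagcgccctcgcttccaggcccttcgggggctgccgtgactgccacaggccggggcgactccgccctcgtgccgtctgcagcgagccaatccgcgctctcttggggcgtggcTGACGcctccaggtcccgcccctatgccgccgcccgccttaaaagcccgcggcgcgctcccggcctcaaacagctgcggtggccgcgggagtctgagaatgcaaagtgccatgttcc
Rgs10, chr7:128418123-128418422, minus strand: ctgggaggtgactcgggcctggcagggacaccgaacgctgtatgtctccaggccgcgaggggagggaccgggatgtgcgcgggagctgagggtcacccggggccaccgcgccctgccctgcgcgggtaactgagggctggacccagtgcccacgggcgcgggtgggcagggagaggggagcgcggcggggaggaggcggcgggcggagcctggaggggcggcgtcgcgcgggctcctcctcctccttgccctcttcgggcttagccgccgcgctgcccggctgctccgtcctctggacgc
The Rgs2 promoter held 2 such cores, starting 185 and 67 bases before the start, and the Rgs10 promoter held 0. RefSeq promoters were found for 5 of the 8 members (Rgs2, Rgs3, Rgs10, Rgs16 and Rgs19, 8 promoters in all), and the core was found in that of Rgs2 only. Of 32851 mouse promoters of 300 bases, 20.8% held at least 1 core on either strand and 5.01% at least 2. The 8-base element TGACGTCA, which contains both forms of the core, was in 1.79% of all promoters, the AP-1 motif TGANTCA in 7.81% and the CArG box in 1.63%, and these 3 were in 0 of the 8 promoters of members. A match describes letters in this window and is no evidence of binding.

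After the limits, 3290 of 20293 listed barcodes (16.2%) were kept in WT and 4343 of 8476 (51.2%) in KO, with a median of 5372 and 7261 UMIs per cell. The libraries shared 75 barcode sequences, carried by 15 kept cells in WT and 28 in KO. Cells were gated by 12 lists of 8 marker genes, none of them an Rgs gene: a cell joined the list with most markers detected, given at least 3 markers and a lead of 2 over any other list. This placed 2080 WT and 2928 KO cells, and 5 classes had at least 100 cells in each library. They are called ILC2-like (647 WT and 590 KO cells), ILC precursor-like (108 and 422), NK or ILC1-like (114 and 394), lymphoid progenitor-like (867 and 1229) and basophil or mast-like (253 and 181). The gates held mixtures at their edges: the lymphoid progenitor-like cells had a median of 3 of 8 plasmacytoid dendritic markers, and NK or ILC1-like cells summed CD3 lineage markers of 934 UMIs per 1000000 UMIs of the class (CPM) in WT and 760 in KO. Where LCR1 lies is not stated in the labels, so no transcript was taken to check the genotype; Id2, a factor that all innate lymphoid cells need, was at 969 CPM (937 to 1001) in ILC2-like WT cells and 246 (227 to 265) in KO.

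Levels below are CPM from the UMIs of a gene and of all genes, each summed over the cells of a class in a library. One UMI stands for the 3' end of 1 transcript, so levels of different genes were compared without division by length. Rgs2 encodes a regulator with a preference for Gq. In ILC2-like cells it was at 151 CPM in WT (138 to 164, from 549 UMIs) and at 361 CPM in KO (339 to 384, from 988 UMIs). The KO library was 2.39-fold higher (2.16 to 2.66), and 99.9% of the genes measured in this class had a lower ratio. After each cell was thinned to 2000 UMIs, 22.3% of WT cells (19.1 to 25.7%) and 45.0% of KO cells (40.9 to 49.1%) held an Rgs2 UMI. Without thinning, the shares were 39.9% and 61.9% at median depths of 5254 and 4407 UMIs. Cells with 2 or more thinned UMIs made up 7.63% in WT and 18.7% in KO.

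Rgs2 was also higher in KO in the 4 other classes. In basophil or mast-like cells, which carry the granule and IgE receptor genes of basophils, it was at 269 CPM in WT (247 to 293) and 502 in KO (469 to 537), a ratio of 1.87 (1.67 to 2.08). ILC precursor-like cells had 79.4 CPM in WT (65.2 to 95.7) and 137 in KO (125 to 149), a ratio of 1.72. NK or ILC1-like cells had 99.0 (78.1 to 124) and 171 (154 to 188), also a ratio of 1.72. Lymphoid progenitor-like cells were lowest in both libraries, at 61.4 CPM (57.0 to 66.0) and 94.7 (90.4 to 99.2), a ratio of 1.54 (1.42 to 1.69). The WT and KO counting intervals did not overlap in any of the 5 classes. Whether the ratio differs between classes was not tested, since each class has 1 value per genotype.

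Rgs1 was the second member whose KO level lay above the WT interval in each class. Its level was 548 CPM in WT (516 to 582) and 1164 in KO (1112 to 1216) in basophil or mast-like cells, where it was the most abundant member. That is a ratio of 2.12 (1.97 to 2.29), and the share of thinned cells with an Rgs1 UMI was 41.6% in WT and 67.2% in KO. ILC2-like cells held 204 CPM (190 to 220) in WT and 319 (298 to 341) in KO, a ratio of 1.56 (1.41 to 1.72), with a UMI in 26.0% and 37.2% of thinned cells. The ratio was 1.86 (1.5 to 2.33) in ILC precursor-like cells, from 70.7 to 132 CPM, and 1.5 (1.25 to 1.82) in NK or ILC1-like cells, from 184 to 277 CPM. In lymphoid progenitor-like cells it was 1.47 (1.35 to 1.61), from 61.2 to 90.2 CPM. NK or ILC1-like cells were also split by depth, and 18 WT and 136 KO cells had under 4000 UMIs and held 516 and 634 CPM of Rgs1. The Rgs1 ratio there was 1.23 (0.826 to 1.90), with 1.17 (0.914 to 1.51) from 4000 to 8000 UMIs. From 8000 UMIs up it was 1.03 (0.663 to 1.63), so each of these intervals held 1. The part of depth in the Rgs1 ratio of the whole class was not tested. In ILC2-like cells the Rgs1 ratios in these ranges were 1.71, 1.43 and 1.61. Free RNA can give UMIs in cells that do not transcribe a gene: among classes with at least 20 cells in a library, early B-like cells were lowest and held 2 Rgs1 UMIs in 27 WT cells and 3 in 22 KO cells (17.0 and 15.0 CPM, at median depths of 3006 and 7091 UMIs). In thinned cells that was a share of 8.33% in WT and 0 of 22 cells in KO, which allows a share of up to 13.6% if 3 counts stand for 0. The interval of the WT share (1.03 to 27.0%) is wide, and it also holds the thinned Rgs1 shares of lymphoid progenitor-like cells (11.6% in WT and 14.2% in KO), ILC precursor-like cells (13.9% and 20.4%), and WT cells of the NK or ILC1-like (22.3%) and ILC2-like (26.0%) classes. At this depth these WT shares were not told apart from the WT background, whose interval rests on few cells, while the 41.6% of basophil or mast-like WT cells lay above it. The WT levels were 17.0 CPM, from 2 UMIs, in early B-like cells. They were 61.2 CPM in lymphoid progenitor-like, 70.7 in ILC precursor-like, 184 in NK or ILC1-like and 204 in ILC2-like cells. The part of free RNA in them was not tested. The limit of 13.6% from 22 KO early B-like cells comes from the floor of 3 counts and not from the kind of interval used for the WT share. Of the KO shares, 20.4% lay above this limit and 14.2% was too near it to be told apart. For Rgs2 no class of that size was near 0 and no background share is given. The 3 WT cells gated as CD3 lineage held 0 UMIs of Rgs1 and of Rgs2, but with 12603 UMIs of all genes they are too few to set a background.

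**Figure D1:**
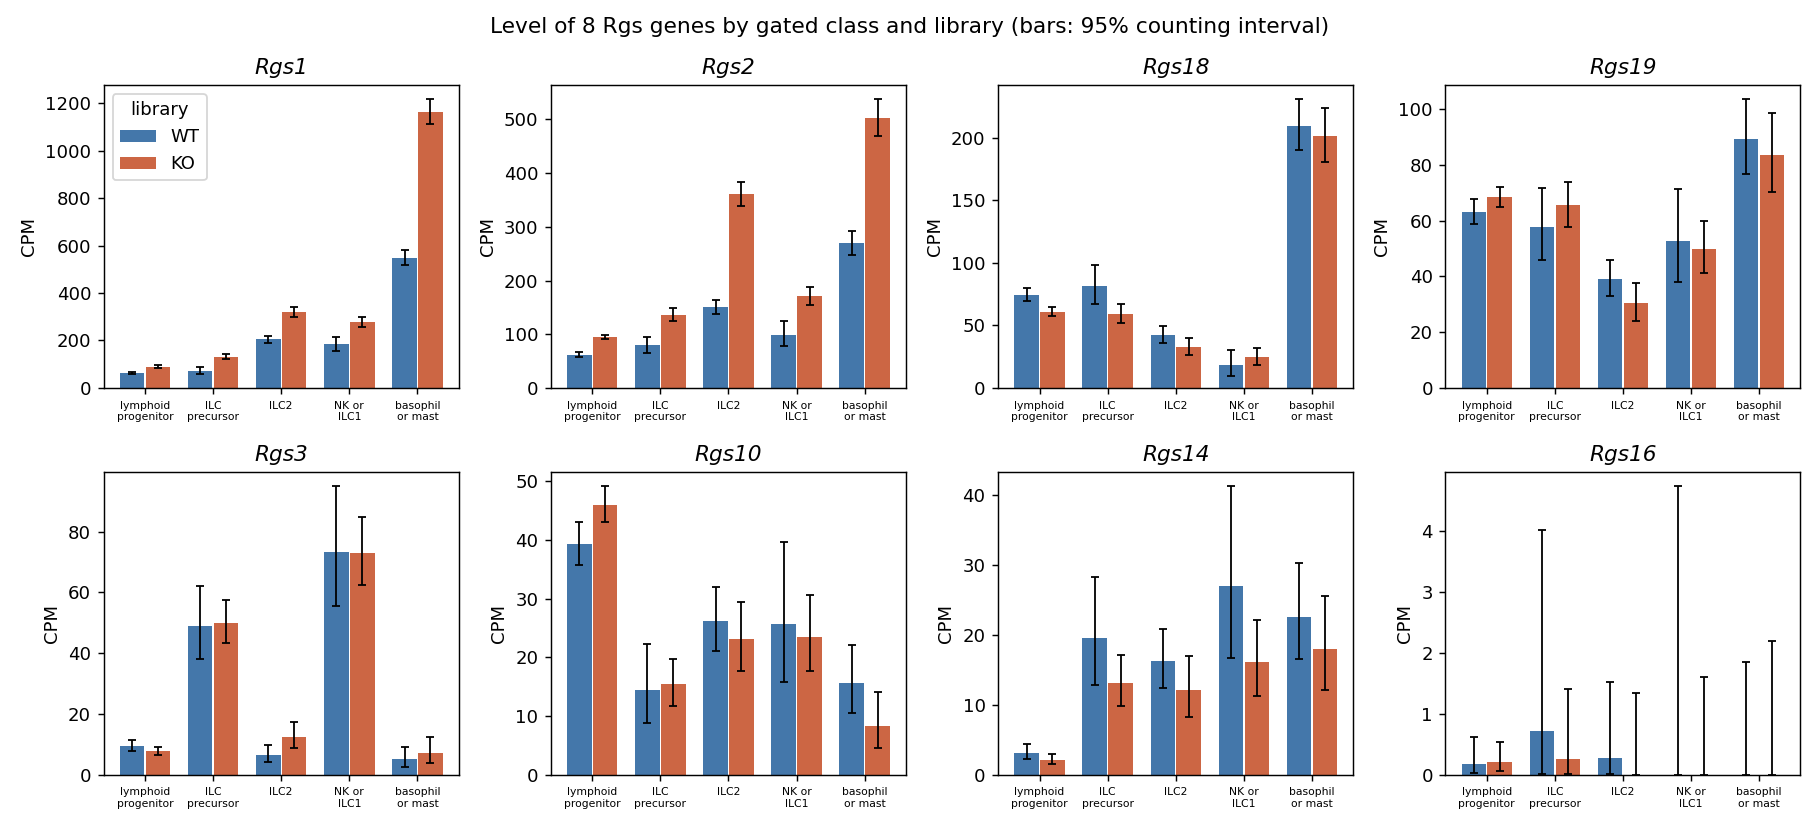
Level of each of the 8 genes in CPM (y axis, linear, its own scale in each panel) in 5 gated classes (x axis), with blue bars for the WT library, orange bars for the KO library and lines for 95% Poisson counting intervals. Rgs1 and Rgs2 stand higher in KO in each class and are highest in basophil or mast-like cells, while Rgs3 is near 73 CPM in NK or ILC1-like cells of both libraries.

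The other members showed no such common direction. Rgs18, a regulator of blood cells that is known best from platelets, was lower in KO in lymphoid progenitor-like cells (74.4 CPM, 69.5 to 79.4, against 60.7, 57.2 to 64.3) and in ILC precursor-like cells (81.5, 67.2 to 98.0, against 59.0, 51.7 to 67.0). The ratios were 0.816 (0.747 to 0.892) and 0.723 (0.575 to 0.914), and both stayed within 1.5-fold. In ILC2-like cells Rgs18 was at 42.3 CPM in WT and 32.5 in KO, and in basophil or mast-like cells at 209 and 201, with overlapping intervals in both. So of the 3 neighbours on chromosome 1, Rgs2 and Rgs1 were higher in KO in ILC2-like cells and Rgs18 was not.

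Rgs19, which acts on Gi subunits, was measured in all 5 classes and its libraries overlapped in each of them. Its levels ran from 39.0 CPM in WT and 30.3 in KO in ILC2-like cells to 89.4 and 83.6 in basophil or mast-like cells. Rgs10, a small member made of little more than the RGS domain, was highest in lymphoid progenitor-like cells, at 39.3 CPM in WT (35.8 to 43.0) and 46.0 in KO (43.0 to 49.2), a ratio of 1.17 (1.05 to 1.31). In ILC2-like cells it was at 26.1 and 23.0 CPM. Rgs14, which carries a second G protein binding motif beside its RGS domain, was at 27.0 CPM (16.7 to 41.3) in NK or ILC1-like WT cells and 16.1 (11.3 to 22.1) in KO, a ratio of 0.595 (0.339 to 1.07) from 21 and 37 UMIs. Rgs3, a regulator of Gi and Gq signals, was at 73.3 CPM (55.5 to 95) in WT and 72.9 (62.3 to 84.9) in KO in NK or ILC1-like cells. In ILC2-like cells Rgs3 was at 6.59 CPM in WT and 12.4 in KO, a ratio of 1.88 (1.09 to 3.32) from 24 and 34 UMIs, which is under the 20 CPM set for calling a gene measured. Rgs16, which acts on Gi and Gq and is induced in activated lymphocytes, had 9 UMIs over the 5 classes and both libraries, and was measured in none. Its 0 UMIs in ILC2-like KO cells allow a level of up to 1.10 CPM.

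A gene counted as measured in a class where its UMIs over both libraries came to 20 or more and its higher level to 20 CPM or more, and as apart at 1.5-fold. Since Rgs members were chosen with differences known, these counts describe them and support nothing. In ILC2-like cells 2 of 5 measured members were higher in KO (Rgs1 and Rgs2) and 0 lower, beside 1.89% of 5938 genes higher and 3.76% lower. In ILC precursor-like cells 2 of 5 were higher and 0 lower, beside 3.9% and 4.71% of 6713 genes, and Rgs2 was at 1.44 with at most 5% mitochondrial UMIs. In NK or ILC1-like cells 2 of 7 were higher and 1 lower (Rgs14), beside 6.68% and 5.76% of 6202 genes. There Rgs1 was at 1.23 with at least 1500 genes per cell and Rgs14 at 0.798 with a gate margin of 1 marker, which ends each call. In lymphoid progenitor-like cells 1 of 5 was higher (Rgs2) and 0 lower, beside 1.35% and 1.24% of 6373 genes, and Rgs2 was at 1.39 without the 5% of cells with most UMIs. In basophil or mast-like cells 2 of 5 were higher and 0 lower, beside 3.02% and 5.6% of 6327 genes. At 2-fold, 1 member was higher in ILC2-like cells (Rgs2), beside 0.337% of genes, and 1 in basophil or mast-like cells (Rgs1), beside 0.79%. It was 0 in ILC precursor-like, NK or ILC1-like and lymphoid progenitor-like cells, beside 1.15%, 1.66% and 0.424%. The median difference of the measured members on the log2(CPM + 5) scale was -0.15 in ILC2-like cells against -0.07 for all measured genes, and 0.17 against -0.05, -0.01 against 0.00, 0.21 against -0.05 and -0.06 against -0.04 in the other classes in the order above. Over the 5 classes, all 9 of the values at least 1.5-fold higher belonged to Rgs1 and Rgs2, and of 17 measured values of other members 0 were higher and 1 lower.

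**Figure D2:**
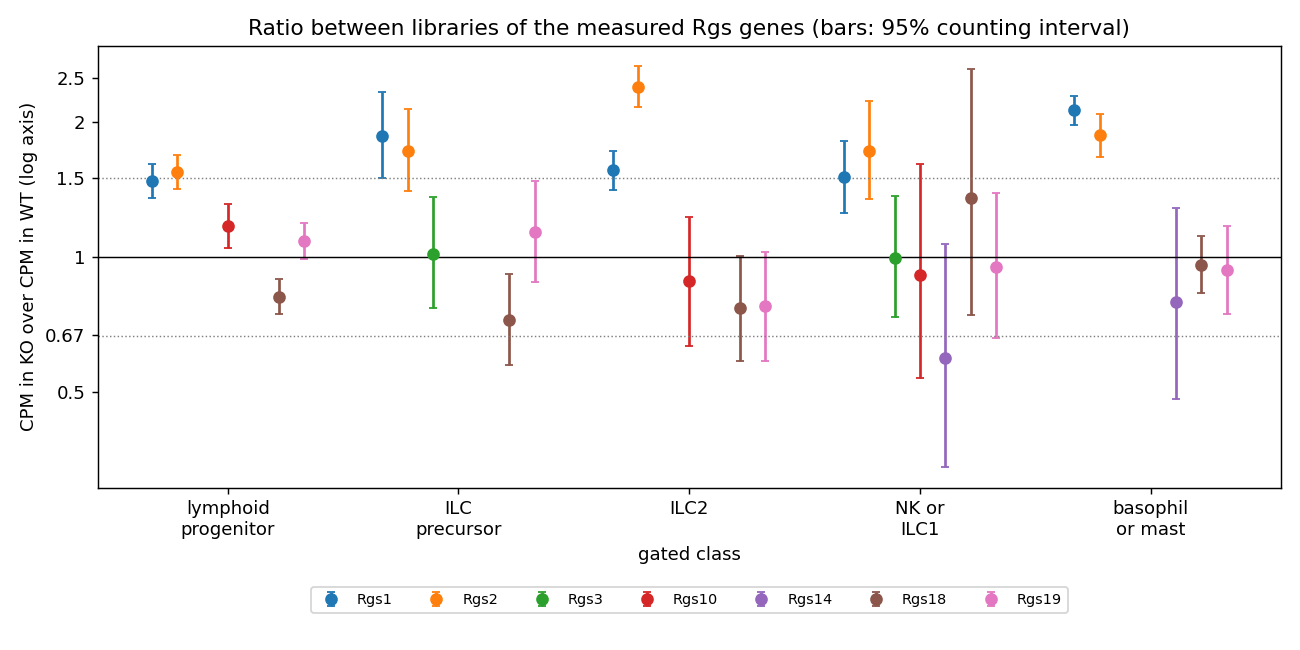
Ratio of the KO level to the WT level (y axis, log scale) of each Rgs gene measured in a class (x axis), with 95% counting intervals and dotted lines at 1.5-fold in both directions. Rgs2 in ILC2-like cells has the highest ratio, 2.39, and Rgs1 in basophil or mast-like cells follows at 2.12, while the points of Rgs10, Rgs18 and Rgs19 lie between the dotted lines.

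**Figure D3:**
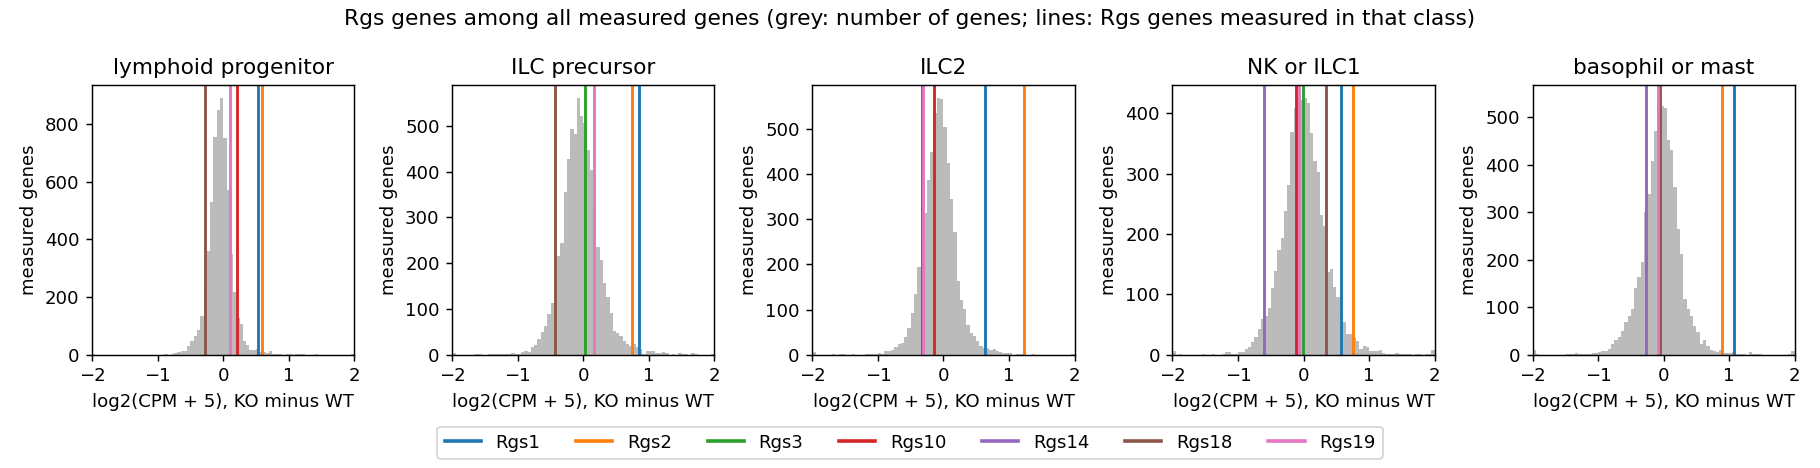
Number of measured genes (y axis) by their difference between the libraries on the log2(CPM + 5) scale (x axis, differences past 2 drawn in the end bins), per class, with coloured lines at the Rgs genes measured there. The lines of Rgs1 and Rgs2 stand in the right tail in each panel, and Rgs2 in ILC2-like cells is at 1.23.

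The make-up of the 8 genes differed between classes. In ILC2-like cells their summed level was 486 CPM in WT and 790 in KO; Rgs1 gave 42.1% of their UMIs in WT and 40.3% in KO, and Rgs2 31.1% (28.9 to 33.3%) and 45.7% (43.6 to 47.8%). Rgs2 thus passed Rgs1 as the leading member there. Basophil or mast-like cells had the highest sum, 1159 and 1984 CPM, of which Rgs1 gave 47.3% and 58.6% and Rgs18 gave 18.1% and 10.1%. Lymphoid progenitor-like cells had the lowest, 312 and 370 CPM, spread over Rgs18 (23.8% and 16.4%), Rgs19 (20.2% and 18.5%) and Rgs10 (12.6% and 12.4%) beside Rgs1 and Rgs2. ILC precursor-like cells summed to 373 and 471 CPM and NK or ILC1-like cells to 480 and 634 CPM, where Rgs3 gave 15.3% and 11.5%.

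The order of the classes for Rgs1 and for Rgs2 was the same in both libraries: basophil or mast-like, ILC2-like, NK or ILC1-like, ILC precursor-like and lymphoid progenitor-like. For Rgs1, ILC2-like and NK or ILC1-like cells had overlapping intervals in both libraries, and so had the last 2 classes in WT. For Rgs2, NK or ILC1-like cells overlapped ILC precursor-like cells in WT, which overlapped lymphoid progenitor-like cells. Rgs18 was highest in basophil or mast-like cells, followed by ILC precursor-like and lymphoid progenitor-like cells with overlapping intervals, and lower in ILC2-like and NK or ILC1-like cells (18.0 CPM in WT and 24.3 in KO in the latter). Rgs3 had another order: NK or ILC1-like cells came first, ILC precursor-like cells next at 49.1 CPM in WT and 49.9 in KO, and the 3 other classes lay between 5.02 and 12.4 CPM. Rgs14 was lowest in lymphoid progenitor-like cells, at 3.14 and 2.14 CPM, and each of its other 4 classes overlapped its neighbours among them in both libraries. ILC2-like cells were lowest of the 5 classes for Rgs19.

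Immediate early genes are transcribed within minutes of a stimulus or of tissue handling. A list of 25 immediate early and stress genes, with chaperone genes such as Hspa1a, Hspa1b and Dnajb1 among them, had a median above that of all genes in KO in each class. Of its genes, 7 of 20 measured were at least 1.5-fold higher in KO in ILC2-like cells, 18 of 19 in ILC precursor-like, 10 of 22 in NK or ILC1-like, 18 of 20 in lymphoid progenitor-like and 18 of 19 in basophil or mast-like cells, with 0 lower in any. Their median difference was 0.48, 0.94, 0.56, 0.83 and 0.91 on the log2(CPM + 5) scale. Their summed level was 16454 CPM in WT and 21206 in KO in ILC2-like cells, and 6121 and 12663 CPM in basophil or mast-like cells. In ILC2-like cells Nr4a1 was at 14 CPM in WT and 37.3 in KO, Klf4 at 192 and 384, and Dusp1, a phosphatase of MAP kinases, at 390 and 747. Fosb and Jun, the most abundant of the list, were at 3486 and 3728 CPM and at 3278 and 3317 CPM.

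Cells were also compared within ranges of these genes. The cells of a class from both libraries were split into tertiles by the UMIs of this list left after thinning to 2000 UMIs; this split was added after the data were seen. In ILC2-like cells the low tertile held 265 WT and 161 KO cells, with immediate early levels of 9681 and 10899 CPM. There Rgs2 was at 113 CPM in WT and 300.5 in KO, a ratio of 2.65 (2.19 to 3.21). In the middle tertile (18486 and 18563 CPM of immediate early genes) it was at 171 and 341 CPM, a ratio of 1.99 (1.65 to 2.40), and in the high tertile (27810 and 32503 CPM) at 200 and 432 CPM, a ratio of 2.16 (1.80 to 2.61). The WT and KO intervals of Rgs2 did not overlap in any of the 3 tertiles of this class. The high tertiles of the other classes were not at like levels of the list: they held 8671 CPM of it in WT and 11832 in KO in lymphoid progenitor-like, 14294 and 21058 in basophil or mast-like, 14857 and 18311 in ILC precursor-like and 13608 and 17362 in NK or ILC1-like cells.

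Rgs2 of the 2 libraries lay closer together within tertiles in lymphoid progenitor-like and basophil or mast-like cells. In lymphoid progenitor-like cells the ratios were 1.39 (1.20 to 1.62), 1.16 (0.983 to 1.38) and 1.11 (0.944 to 1.31) from the low to the high tertile, against 1.54 in the whole class. In basophil or mast-like cells they were 1.44 (1.07 to 1.92), 1.48 (1.22 to 1.80) and 1.04 (0.884 to 1.23), against 1.87 in the whole class, and Rgs2 itself ran from 135 CPM in the low to 703 CPM in the high tertile of WT. ILC precursor-like cells gave 0.798 (0.593 to 1.08), 2.78 (1.81 to 4.45) and 2.41 (1.09 to 6.64), the last from 9 WT cells with 6 UMIs. NK or ILC1-like cells gave 1.44 (0.968 to 2.20), 0.973 (0.649 to 1.49) and 2.20 (1.20 to 4.49), the last from 15 WT cells.

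For Rgs1 the ILC2-like ratios were 1.35 (1.13 to 1.63), 1.46 (1.23 to 1.73) and 1.63 (1.36 to 1.95), near the 1.56 of the whole class. Those of lymphoid progenitor-like cells were 1.21 (1.03 to 1.41), 0.930 (0.788 to 1.10) and 1.24 (1.05 to 1.47). In basophil or mast-like cells Rgs1 differed most in the low tertile, at 222 CPM in WT and 551 in KO, a ratio of 2.48 (2.05 to 3.00), with 1.16 and 1.46 in the other 2 tertiles. ILC precursor-like cells gave 1.04, 1.93 and 1.34 and NK or ILC1-like cells 0.780, 1.11 and 1.42, and of these 6 intervals only that of 1.93 (1.28 to 3.03) left out 1. Rgs18 in lymphoid progenitor-like cells stayed lower in KO in each tertile, at ratios of 0.875 (0.767 to 0.997), 0.815 (0.686 to 0.970) and 0.738 (0.598 to 0.916), and its WT level of 73.9, 74.3 and 77.5 CPM did not follow the immediate early genes. The part of the immediate early genes in the Rgs1 and Rgs2 differences was not tested.

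**Figure D4:**
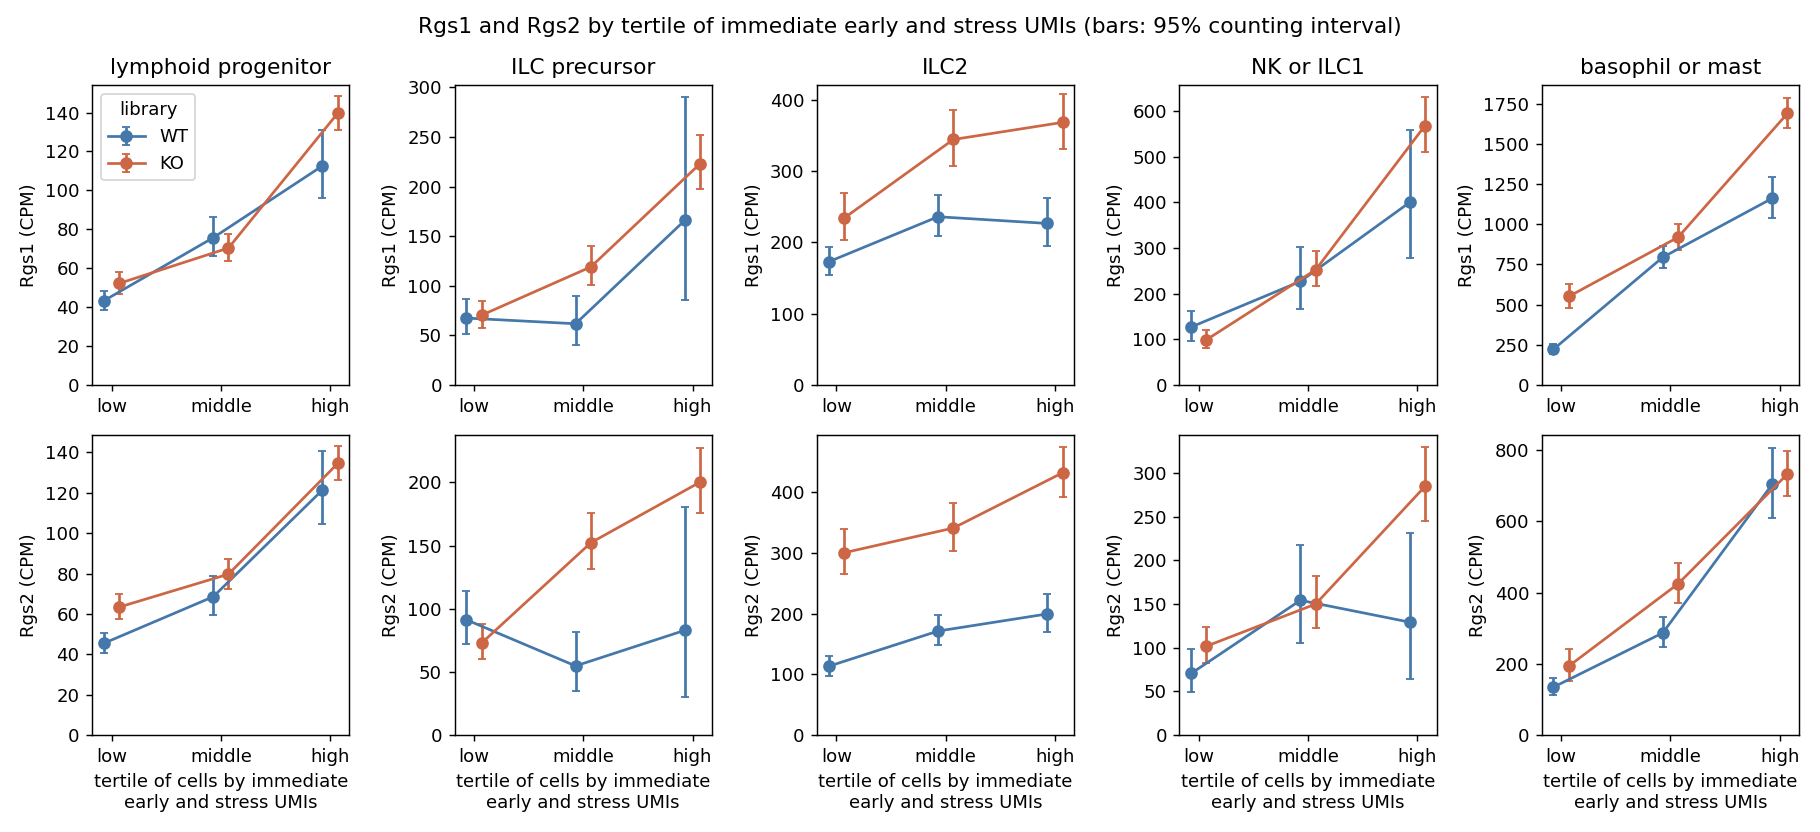
Level of Rgs1 (upper row) and Rgs2 (lower row) in CPM (y axis) in the low, middle and high tertile of cells by immediate early UMIs (x axis), for WT (blue) and KO (orange) in 5 classes, with 95% counting intervals. In ILC2-like cells the Rgs2 points of KO (300.5, 341 and 432 CPM) lie above all those of WT (113, 171 and 200 CPM), and in lymphoid progenitor-like cells the 2 lines run close together.

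Depth and RNA quality were looked at in the same way for Rgs2 in ILC2-like cells. Among cells under 4000 UMIs it was at 293 CPM in WT and 434 in KO, a ratio of 1.48, from 4000 to 8000 UMIs at 137 and 346, a ratio of 2.52, and from 8000 UMIs up at 124 and 245, a ratio of 1.98. At up to 3% of mitochondrial UMIs the ratio was 4.84 (2.74 to 8.52), from 123 to 595 CPM in 47 WT and 9 KO cells. At 3 to 5% it was 2.74 (2.40 to 3.13), from 140 to 383 CPM, and at 5 to 10% it was 1.67 (1.38 to 2.02), from 192 to 320 CPM. Just outside the limit of 1000 genes, ILC2-like barcodes with 900 to under 1000 genes held 88.8 CPM in WT and 269 in KO from 3 and 4 UMIs, and just inside, with 1000 to under 1100 genes, 240.0 and 407 CPM from 10 and 23 UMIs. Markers of basophils, the class with most Rgs1 and Rgs2, summed to 275 CPM in ILC2-like WT cells and 153 in KO (8 of 8 markers detected in both), against 55642 and 57308 in basophil or mast-like cells. In ILC2-like cells erythroid markers summed to 365 CPM in WT and 19.0 in KO, and neutrophil or monocyte markers to 81.6 and 33.6. In lymphoid progenitor-like cells erythroid markers summed to 422 and 5.49 CPM, and in ILC precursor-like cells lymphoid progenitor markers summed to 293 and 482 CPM. Erythroid markers went the other way in basophil or mast-like cells, at 28.1 CPM in WT and 201 in KO. They were at 7.21 and 2.02 CPM in ILC precursor-like and at 3.86 and 4.78 in NK or ILC1-like cells. The part of these cell types in the Rgs differences was not tested. Without the shared barcodes the ratio was 2.40.

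Calca, the gene of the peptide CGRP and a marker of part of the marrow ILC2, is also among the 8 markers of the ILC2 gate. A split by Calca divided Rgs2 levels further. ILC2-like cells with a Calca UMI (390 in WT and 309 in KO) had 214 CPM of Rgs2 in WT (and 259 of Rgs1) and 458 in KO (391 of Rgs1). Cells without a Calca UMI (257 and 281) had 62.9 CPM of Rgs2 in WT and 260 in KO, a ratio of 4.14 (3.29 to 5.24), against 2.14 (1.89 to 2.42) in those with a Calca UMI. Rgs1 in cells without one was at 129 and 244 CPM, a ratio of 1.89 (1.58 to 2.27). A cell without a UMI may still express Calca, and ILC2-like cells had a median depth of 5254 UMIs in WT and 4407 in KO. Of lymphoid progenitor-like cells, 140 of 867 in WT and 79 of 1229 in KO also held a Calca UMI. The part of depth and free RNA in these ratios was not tested.

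Partners of RGS proteins in ILC2-like cells are given beside the 1.89% of all genes measured there that were 1.5-fold higher and the 3.76% that were lower, so that lists of this size would hold 0 or few such genes. Of 13 G protein alpha subunit genes, 7 were measured and 0 were apart at 1.5-fold in either direction, with a median log2 difference of -0.01. Gnas, the Gs subunit that raises cAMP, was at 604 CPM in WT and 579 in KO, Gnai2, the main Gi subunit of lymphocytes, at 331 and 315, Gna13 at 125 and 154, Gnaq at 109 and 117, and Gna15 at 39.6 and 33.6. Of 15 beta and gamma subunit genes, 5 were measured with 0 apart (median -0.04); Gng5 was at 296 and 298 CPM, Gnb2 at 228 and 221, Gnb1 at 164 and 139, and Gng12 at 28.0 and 22.7. Receptor kinases and arrestins, the other brake on these receptors, had 4 of 7 genes measured and 0 apart (median 0.01), with Grk2 at 91.8 and 102 CPM, Arrb2 at 84.3 and 77.9, and Arrb1 at 33.8 and 34.4.

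Receptors were mostly within 1.5-fold too. Among 20 Gi-coupled receptors 8 were measured, 0 were higher and 1 lower: Gpr183, the receptor for oxysterols, at 114 CPM in WT and 72.4 in KO (median of the list -0.12). Ccr9 was at 404 and 360 CPM, Ccr2 at 170 and 216, Cxcr6 at 115 and 87.7, and P2ry14 at 49.2 and 70.9. Ccr9 and Cxcr6 are also gate markers, of the plasmacytoid dendritic and ILC precursor lists, so the gate partly sets their levels here. Among 16 Gs- and Gq-coupled receptors 7 were measured, 0 higher and 1 lower: Ptger4, a prostaglandin E2 receptor coupled to Gs, at 41.5 and 19.0 CPM, a ratio of 0.458 (0.328 to 0.632; median of the list -0.04). Cysltr1, a leukotriene receptor, was at 141 and 137 CPM, Ptgir at 80.5 and 65.1, and Vipr2 at 40.4 and 32.9. Of 16 cAMP pathway genes 12 were measured and 0 were apart (median -0.02): Akap13 was at 315 and 358 CPM, Prkar1a at 259 and 257, Prkacb at 99.4 and 76.0, Pde4b at 42.6 and 54.8, and Prkaca at 25.8 and 19.0.

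Of 13 other genes named Rgs and a number, 10 had under 20 UMIs over the 5 classes, 4 of them 0, and 1 was measured in any class. That was Rgs12, a large member with several signalling domains, at 25.3 CPM in WT and 28.0 in KO in ILC precursor-like, 29.8 and 28.1 in lymphoid progenitor-like and 39.2 and 38.8 in basophil or mast-like cells.

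The genes whose pattern was most like that of a member were sought over the 10 values of class and library, among 4512 genes that reached 50 CPM in at least 1 of them. These 10 points share 2 libraries, so the correlations of log2(CPM + 5) are descriptions. For Rgs2 they were Map1lc3b (Pearson r of 0.93), Ier2 (0.91) and Selenok (0.91); Ier2, an immediate early gene, was at 387 CPM in WT and 567 in KO in ILC2-like cells. For Rgs1 they were Lilr4b (0.96), Ier3ip1 (0.95) and Dhx40 (0.94), of which Lilr4b was at 338 and 380 CPM in basophil or mast-like cells and at 4.42 and 4.29 in lymphoid progenitor-like cells. For Rgs18 they were Arpc1a (0.99), Def8 (0.99) and Mboat7 (0.98). Rgs1 and Rgs2 had an r of 0.94 with each other, and Rgs18 and Rgs1 one of 0.37.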

How the data were processed

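The authors deposited raw UMI counts per gene and barcode for 2 libraries, 1 per genotype, written by Cell Ranger 3.1.0 per the file headers. The submitters' processing notes name mm10 and Seurat, with no role stated for the latter. The 8 members and all lists were chosen with earlier results of these data known.

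Cells needed at least 1000 genes and at most 10% mitochondrial UMIs, and total 29168870 UMIs in WT and 42601457 in KO. The gate rule (3 markers, lead of 2) was set after a look at the data that included Rgs levels. No doublet caller was run. CPM over class totals carry exact Poisson intervals, ratios exact conditional binomial intervals and shares of thinned cells (2000 UMIs, seed 1) Clopper-Pearson intervals, at 95%. A floor of 3 counts stands for 0. Named genes of each list were, among those measured in ILC2-like cells, the 3 with the largest absolute difference on log2(CPM + 5) and the 2 with the highest CPM; likeness was ranked by Pearson r, leaving out members, mitochondrial, ribosomal protein, haemoglobin, immunoglobulin and T cell receptor genes and models without a symbol. Counts of all 8 members were taken by symbol, and their gene IDs, those of Rgs14 and Rgs16 among them, were the same in the files and in the annotation. Of the members, Rgs16 and Rgs3 overlap predicted genes on the opposite strand, and Rgs10 a same-strand model with no row in the files. Positions came from GENCODE and promoters from RefSeq. Ratios were tested on simulated counts, and thinning was checked on KO barcodes for its totals and for counts that did not grow. There were 11 alternatives planned and 3 added after seeing the data, and the splits by tertile, depth, mitochondrial share and Calca were added then too. Tools were Python 3.11.15, numpy 2.4.6, scipy 1.17.1, pandas 2.3.3 and matplotlib 3.10.9.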

Additional observations from a re-analysis of the deposited data

How the results depend on the processing

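With 1 pooled library per genotype, a difference between libraries may come from genotype, animals or handling, which cannot be told apart. No paired analysis was possible because each genotype had 1 library. Rgs2 in ILC2-like cells stayed higher in KO under 13 alternatives, at 2.18 to 2.81-fold, the last with at most 5% mitochondrial UMIs. The count of members at least 1.5-fold apart in ILC2-like cells was 1 in place of 2 with gates read from thinned cells, where Rgs1 was at 1.35-fold, and 4 with no filter on low counts. In lymphoid progenitor-like cells it was 2 in place of 1 with at least 1500 genes, with median ratio scaling and with a gate margin of 1 marker. It was 0 there with the mean of per-cell CPM and without the 5% of cells with most UMIs, where Rgs2 was at 1.39-fold. The Rgs14 difference between NK or ILC1-like and basophil or mast-like cells turned sign, to -0.75 (log2) with thinned levels, -0.12 with the mean of per-cell CPM and -0.0073 without the 5% of cells with most UMIs; the cause was not tested. Of 396 values of single genes under alternatives, 369 lay within the counting spread of the main value, which is wide for genes such as Rgs14, and 24 lay outside it. Of 324 ratios of KO to WT under alternatives, 19 fell on the other side of 1, none of them among the 120 of values at least 1.5-fold apart; Rgs18 in basophil or mast-like cells went from 0.961 to 1.32 with thinned levels. Of those 120, 10 were no longer 1.5-fold apart, among them Rgs1 in NK or ILC1-like cells, at 1.23 with at least 1500 genes, and Rgs14 there, at 0.781 with gates from thinned cells and 0.798 with a margin of 1 marker. Depth limits Rgs14 and Rgs16 most, with 382 and 9 UMIs in all.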

Other observations

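Classes with under 100 cells in a library were left out of the comparison of WT with KO. ILC3-like cells (52 in KO and 3 in WT) held 158 CPM of Rgs1 (116 to 210), 121 of Rgs2 (84.6 to 167) and 70.5 of Rgs18 (43.6 to 108) in KO. Plasmacytoid dendritic-like cells (39 in WT and 17 in KO) held 124 CPM of Rgs18 in WT (81.8 to 181) and 78.2 in KO (40.4 to 137). In early B-like cells Rgs2 was at 153 CPM in WT (90.7 to 242) and 95.2 in KO (57.3 to 149), from 18 and 19 UMIs, while Rgs18 had 2 UMIs in each library.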
